A study of Mus musculus with 12 samples.

Results

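The nucleus pulposus (NP) of the lumbar intervertebral disc was compared with the annulus fibrosus (AF) in wild-type (WT) mice. Of the 12 arrays of the series, the 6 labelled WT were used: 3 of lumbar NP tissue and 3 of lumbar AF tissue. All animals were C57BL/6 mice aged 12 months, and each sample was the disc tissue of a single animal, pooled over its lumbar discs, per the labels' protocols. The labels do not tie an AF sample to an NP sample of the same mouse, so the tissues were compared without pairing. The remaining 6 arrays, 3 of each tissue, came from C57BL/6 mice of the same age with a single functional allele of TonEBP (TonEBP +/-) and were used to read the same tissue difference in other samples and to test whether it differed between the genotypes. TonEBP, encoded by Nfat5, is a transcription factor of the response to hyperosmolarity. RNA was measured on Clariom S Mouse arrays, which hold 22206 transcript clusters beside their control probe sets, each cluster summarizing the probes of 1 gene.

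The NP is the gelatinous core of the disc. Its cells descend from the embryonic notochord, and many keep the large vacuoles of notochordal cells. They live without blood vessels, in a hypoxic and hyperosmotic matrix whose main proteoglycan is aggrecan. The AF is the ring of collagen lamellae around that core, formed from the sclerotome. Its outer layers resemble tendon and its inner layers fibrocartilage, and it adjoins the cartilage endplates and the bony rims of the vertebrae. Brachyury, sonic hedgehog and the keratins of simple epithelia are the usual marks of notochord-derived cells, and small leucine-rich proteoglycans and fibrillar collagens those of the AF.

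Values are log2 signals relative to each array's median, and a difference is the NP mean less the AF mean, with its standard error from the limma fit (3 arrays a tissue). A cluster was called where its Benjamini-Hochberg adjusted p from limma was under 0.05. A level was read as above background where it exceeded the 95th percentile of the array's 23 background probe sets. It was read as at the top of the scale within 0.02 log2 of the array's own highest signal. This applied to 25 to 27 clusters on each AF array and to 7 on each NP array. The tissues differed on their arrays in more than single genes: the interquartile range of the clusters was 2.36 to 2.51 log2 on the AF arrays and 3.61 to 3.72 on the NP arrays. The exonic less the intronic normalization control probe sets gave 1.48 to 1.73 log2 on AF arrays and 3.07 to 3.46 on NP arrays. The median difference ran from -0.47 in the lowest of 5 equal classes of clusters by mean level to 1.63 in the highest. Differences were therefore also computed under 5 other scalings of the arrays. A difference that was called in the same direction under all 6 scalings, with the higher tissue above background on all 3 of its arrays, is described as held under every scaling. This rule was chosen after seeing the data.

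Most clusters differed between the tissues. Of 22206 clusters, 7689 were called higher in NP (34.6% of all) and 7272 lower (32.7%), with a median difference of -0.10. The values of the tissues did not overlap for 15898 clusters, and 8949 clusters were at background on every array of both tissues. Under every scaling, 2448 clusters (11.0%) were higher in NP and 2673 (12.0%) lower. Because centring on the exonic controls moved every difference down by 1.54 log2, the rule asked more of a rise than of a fall: all 2448 held rises were at least 4-fold, and 687 of the held falls were. Of the clusters held as lower, 957 were at background on all 3 NP arrays. Without median subtraction, 28.7% of the called clusters were higher in NP, and centred on the exonic controls 15.0% were, against 51.4% here. Arrays of the same tissue correlated at 0.966 to 0.976 for AF and 0.986 for NP, and arrays of different tissues at 0.787 to 0.813. These correlations are across clusters, which are not independent replicates.

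**Figure D1:**
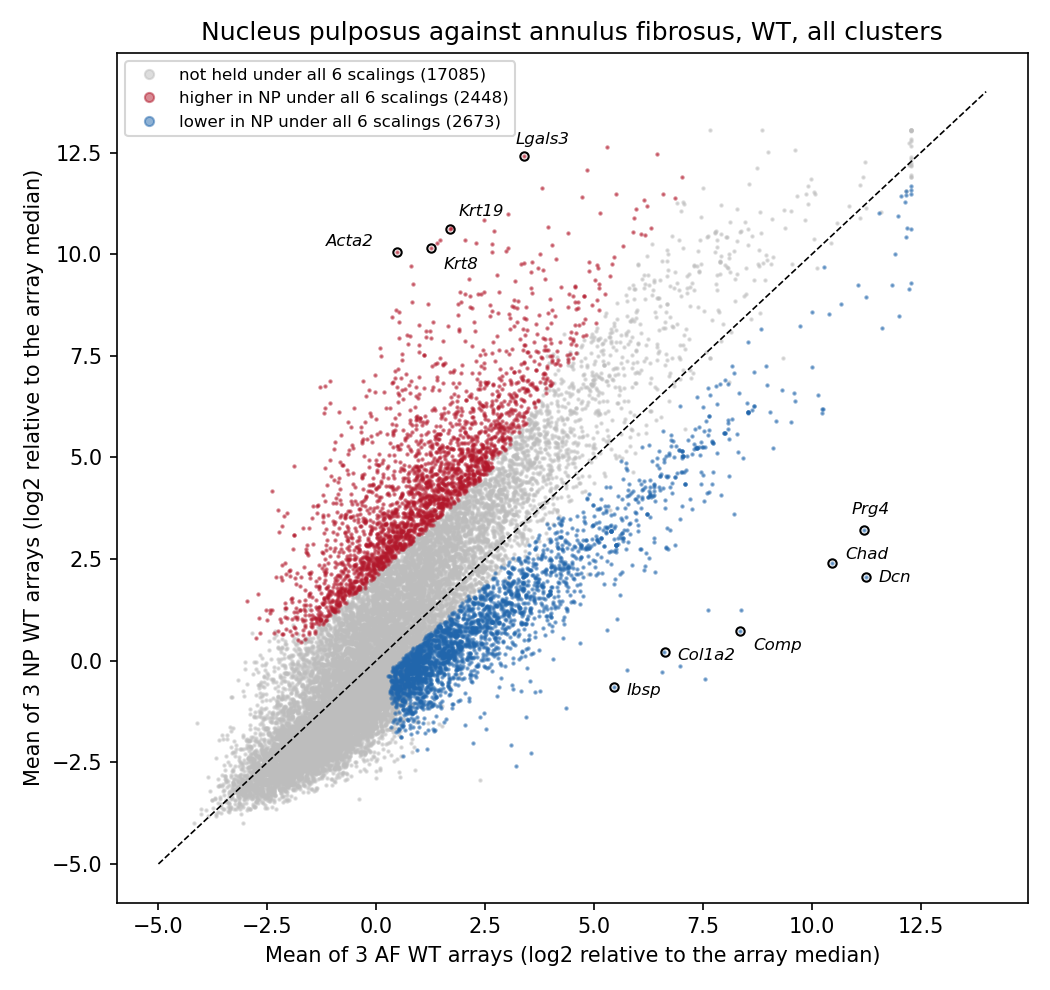
Mean level of each of 22206 transcript clusters in AF (x axis) and NP (y axis) of WT mice, as log2 relative to the array median, with 3 arrays a tissue. Red points (2448) were higher and blue points (2673) lower in NP under all 6 scalings, grey points were not held, the dashed line marks equal levels, and the circled genes are some of those far from it.

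The NP samples carried the keratins and the morphogen Shh of notochord-derived cells. Of 20 listed NP and notochord markers, 19 had a cluster. Keratin genes Krt8, Krt18 and Krt19, which encode intermediate filaments of simple epithelia, the lectin Lgals3, the cadherin Cdh2 and the morphogen Shh were higher in NP and held under every scaling. Krt19 read 10.75, 10.45 and 10.68 on the NP arrays and 3.77, 0.63 and 0.68 on the AF arrays. Its 3 NP values lay within 0.30 log2 of each other, whereas AF array 1 stood about 3 log2 above the other AF arrays. The difference was 8.93 ± 0.66 (adjusted p = 7.11e-07 by limma), or 489-fold. Krt8 read 10.0, 10.19 and 10.25 in NP against 2.74, 0.35 and 0.71 in AF, a difference of 8.89 ± 0.49 (adjusted p = 1.07e-07, limma). Its filament partner Krt18 read 8.15, 8.34 and 8.52 against 1.33, 0.2 and 0.03, a difference of 7.81 ± 0.32 (adjusted p = 2.62e-08, limma). For all 3 keratins the tissues did not overlap, as for 15898 of all 22206 clusters, and AF array 1 was the highest AF array. Lgals3 differed by 9.02 ± 0.57 and Cdh2 by 6.55 ± 0.46. Shh, the ligand that the notochord sends to neighbouring tissue, was lower in level, at 4.13, 3.66 and 4.45 in NP against 1.39, 1.33 and 1.3 in AF. It differed by 2.74 ± 0.24 (adjusted p = 2.42e-06, limma).

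The other listed NP genes did not move as a block. The carbonic anhydrase Car3 differed by 5.41 ± 0.91 and the surface glycoprotein Cd24a by 3.31 ± 0.27, and both were called, but neither held when the arrays' interquartile ranges were equalized (1.26, adjusted p = 0.38, and -0.59, adjusted p = 0.15, limma). Car3 sat at the top of the scale on all 3 NP arrays, so its difference there is a lower bound, and it read 10.57 on AF array 1 against 6.62 and 5.78 on the others. Ncdn was called higher in NP, by at least 0.55 against AF at background. The notochord transcription factors were near the limit of detection: Foxa1 and Foxa2 were at background on every array of both tissues, as were Basp1, Foxf1, Ovos and the BMP antagonist Nog. Noto, a homeobox gene of the node and early notochord, read 0.71 to 0.95 in NP and 0.47 to 1.06 in AF, with no call. Brachyury was not analysed here. The sclerotome factor Pax1 was called lower by 3.57 ± 0.38, with NP at background and AF above it on 2 of 3 arrays. The hyaluronan receptor Cd44 fell by 1.52 ± 0.39 and held under every scaling, and the endothelial receptor Tie1 was called lower by 1.47 ± 0.26. In all, 11 of 19 measured members were called higher, Foxa1 and Basp1 at background among them, and 4 lower. Of these calls 6 and 1 held, against 11.0% and 12.0% of all clusters. The median difference was 1.11, less than the 1.54 log2 by which centring on the exonic controls lowered every difference.

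**Figure D2:**
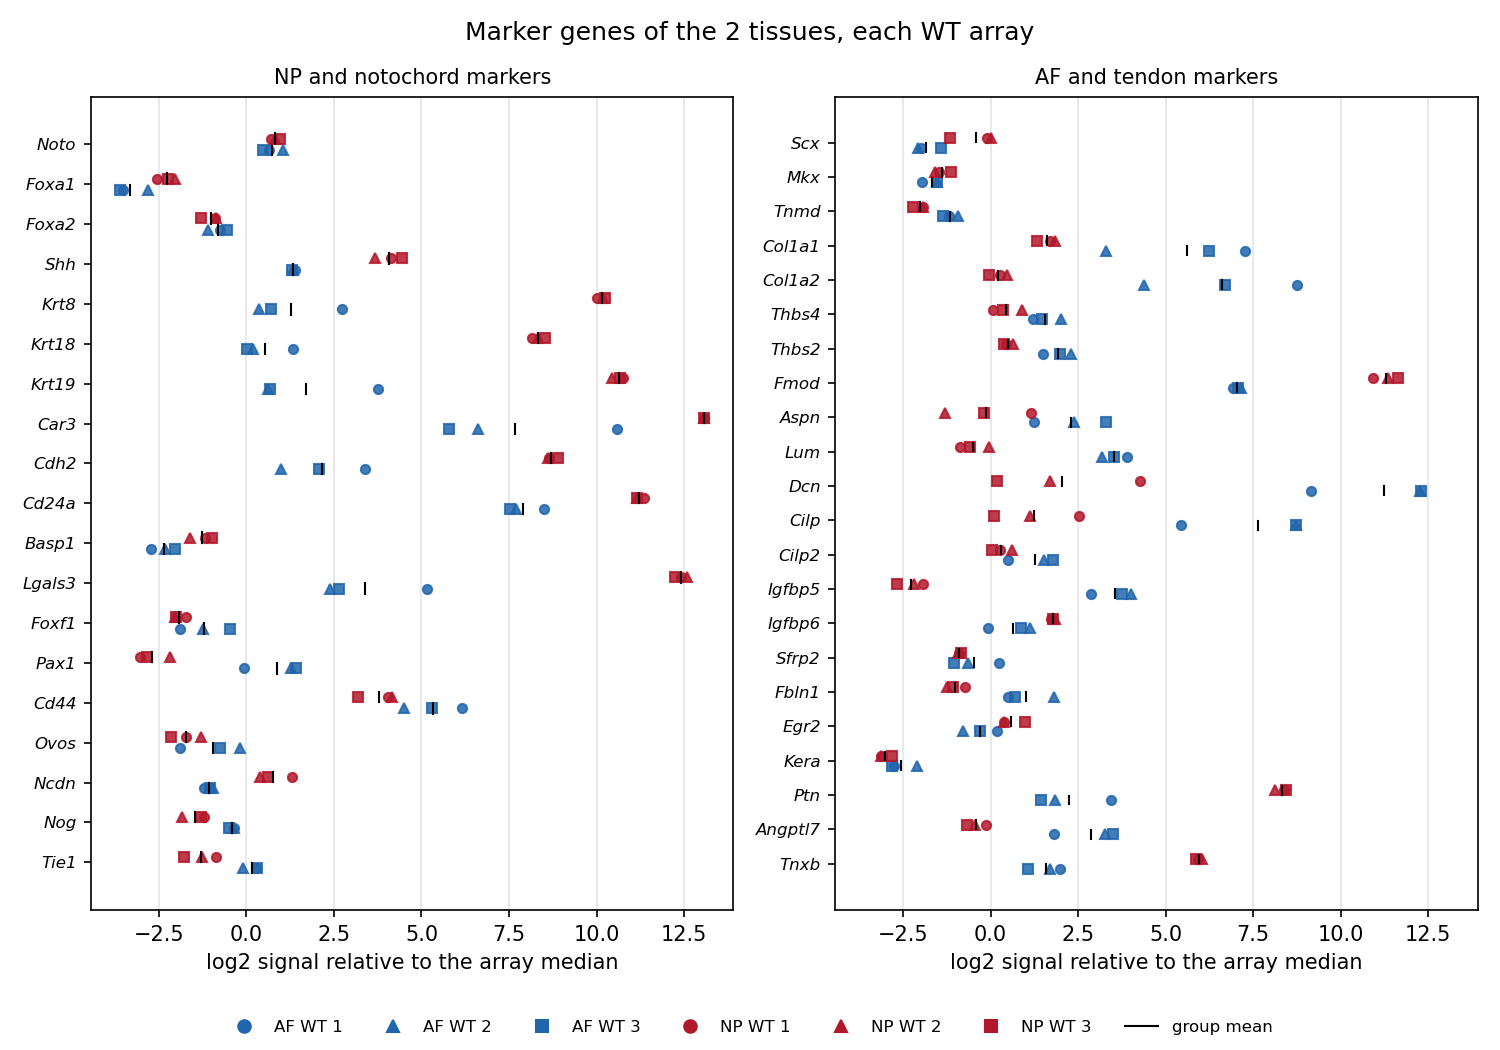
Level of each listed NP and notochord marker (left) and AF and tendon marker (right) on every WT array, as log2 relative to the array median; blue AF, red NP, the symbol marks the array and the black bar the group mean. Krt8, Krt18, Krt19, Lgals3 and Cdh2 separate far to the right in NP, Dcn, Cilp and the type I collagen genes in AF, while Scx, Mkx and Tnmd lie low in both.

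Promoters are shown for the listed NP and AF markers whose difference held and was 6 log2 or more in size, with a RefSeq entry (6 of 9 such genes), because they belong to the genes that separate the tissues most. Each is the 250 bases before the start site, 5′ to 3′ on the gene's strand, in the RefSeq promoter table of GRCm38.p6. Capitals mark E-boxes, read as CANNTG on both strands, the letters that basic helix-loop-helix factors such as scleraxis and TWIST bind. The T-box half-site AGGTGTGA, the letters bound by brachyury, and TGGAAA, the core letters bound by TonEBP, were searched on both strands too and occur in none of the 6.
Lgals3 (chr14:47373610-47373859, + strand): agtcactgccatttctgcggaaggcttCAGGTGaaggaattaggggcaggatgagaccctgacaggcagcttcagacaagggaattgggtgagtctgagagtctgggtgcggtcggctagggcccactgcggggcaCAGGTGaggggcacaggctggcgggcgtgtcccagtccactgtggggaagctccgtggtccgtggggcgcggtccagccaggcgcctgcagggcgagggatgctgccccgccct
Krt8 (chr15:102004343-102004592, - strand): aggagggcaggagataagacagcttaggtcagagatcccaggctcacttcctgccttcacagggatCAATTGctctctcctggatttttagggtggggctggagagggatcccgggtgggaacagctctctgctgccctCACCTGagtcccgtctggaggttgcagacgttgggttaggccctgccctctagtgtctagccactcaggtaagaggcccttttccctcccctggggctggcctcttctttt
Krt18 (chr15:102027966-102028215, + strand): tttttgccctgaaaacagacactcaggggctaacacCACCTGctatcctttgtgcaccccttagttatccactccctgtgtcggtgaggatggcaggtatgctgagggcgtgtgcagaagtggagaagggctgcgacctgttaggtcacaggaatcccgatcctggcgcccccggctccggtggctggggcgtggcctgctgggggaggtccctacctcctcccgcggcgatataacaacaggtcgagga
Ptn (chr6:36810180-36810429, - strand): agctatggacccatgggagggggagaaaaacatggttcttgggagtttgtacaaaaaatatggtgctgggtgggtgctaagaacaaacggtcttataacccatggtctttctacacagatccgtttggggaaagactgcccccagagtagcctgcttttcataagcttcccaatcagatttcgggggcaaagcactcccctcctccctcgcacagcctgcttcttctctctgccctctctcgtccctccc
Col1a2 (chr6:4505368-4505617, + strand): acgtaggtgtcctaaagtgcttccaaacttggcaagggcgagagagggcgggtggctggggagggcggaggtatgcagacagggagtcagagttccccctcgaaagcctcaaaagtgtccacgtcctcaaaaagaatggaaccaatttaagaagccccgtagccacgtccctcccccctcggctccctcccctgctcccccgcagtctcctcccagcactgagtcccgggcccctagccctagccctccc
Cilp (chr9:65264930-65265179, + strand): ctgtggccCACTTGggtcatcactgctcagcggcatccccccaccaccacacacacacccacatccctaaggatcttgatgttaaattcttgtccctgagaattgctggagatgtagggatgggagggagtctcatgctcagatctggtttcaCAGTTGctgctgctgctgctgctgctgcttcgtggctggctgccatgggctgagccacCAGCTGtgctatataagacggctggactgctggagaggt
The genes higher in NP held 2 (Lgals3), 2 (Krt8), 1 (Krt18) and 0 (Ptn) E-boxes, and the genes lower in NP 0 (Col1a2) and 3 (Cilp). Among 27025 genes of the table, 66.0% had an E-box in this window, 1.14% the T-box half-site and 18.7% TGGAAA. Krt8 and Krt18, which encode partners of 1 filament, lie near each other on chromosome 15, on opposite strands. A match of letters is a description of the sequence and not a binding site, and a window without them says nothing of a factor that binds elsewhere.

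The 12 genes with the largest rises in NP differed by 8.19 to 9.58 log2 (291-fold to 767-fold), and all 12 held under every scaling. AF was above background on 1 of 3 arrays for Acta2, Gpc3 and Rab38 and on 2 of 3 for Perp and Tmem255a, so their folds and their order rest in part on background readings. Besides Krt8, Krt19 and Lgals3 they were Acta2, the smooth muscle actin, Gpc3, a cell-surface heparan sulfate proteoglycan, Pde1a, a calcium-dependent cyclic nucleotide phosphodiesterase, Zim1, an imprinted zinc finger gene, Perp, a membrane protein of desmosomes, Rab38, a small GTPase of lysosome-related organelles, Slc15a5, a member of the peptide transporter family, and the membrane proteins Tmem255a and Tmem163. Acta2 read 9.54, 10.39 and 10.23 in NP and 1.34, 0.11 and -0.04 in AF, a difference of 9.58 ± 0.36 (adjusted p = 2.52e-08, limma). Gpc3 read 9.73, 9.63 and 9.79 against 2.2, 0.21 and -0.03, a difference of 8.92 ± 0.47. Rab38 read 8.73, 8.34 and 8.85 against 1.91, -0.68 and 0.12, a difference of 8.19 ± 0.51. In these 3 genes the SD over the AF arrays (0.76, 1.22 and 1.33) was above that over the NP arrays (0.45, 0.08 and 0.27).

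AF array 1 was the highest of the AF arrays for all 12 rises. Over the 2448 held rises it was the highest for 40.2%, against 18.5% for AF array 2 and 41.3% for AF array 3. Left out, the 12 rises came to 8.92 to 10.17 log2. Over the 12 largest falls it was the lowest AF array for 10, and NP array 1 was the highest NP array for 10. Over the 2673 held falls these shares were 24.3% and 36.6%. Whether tissue of one kind was dissected with the other was not tested.

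**Figure D3:**
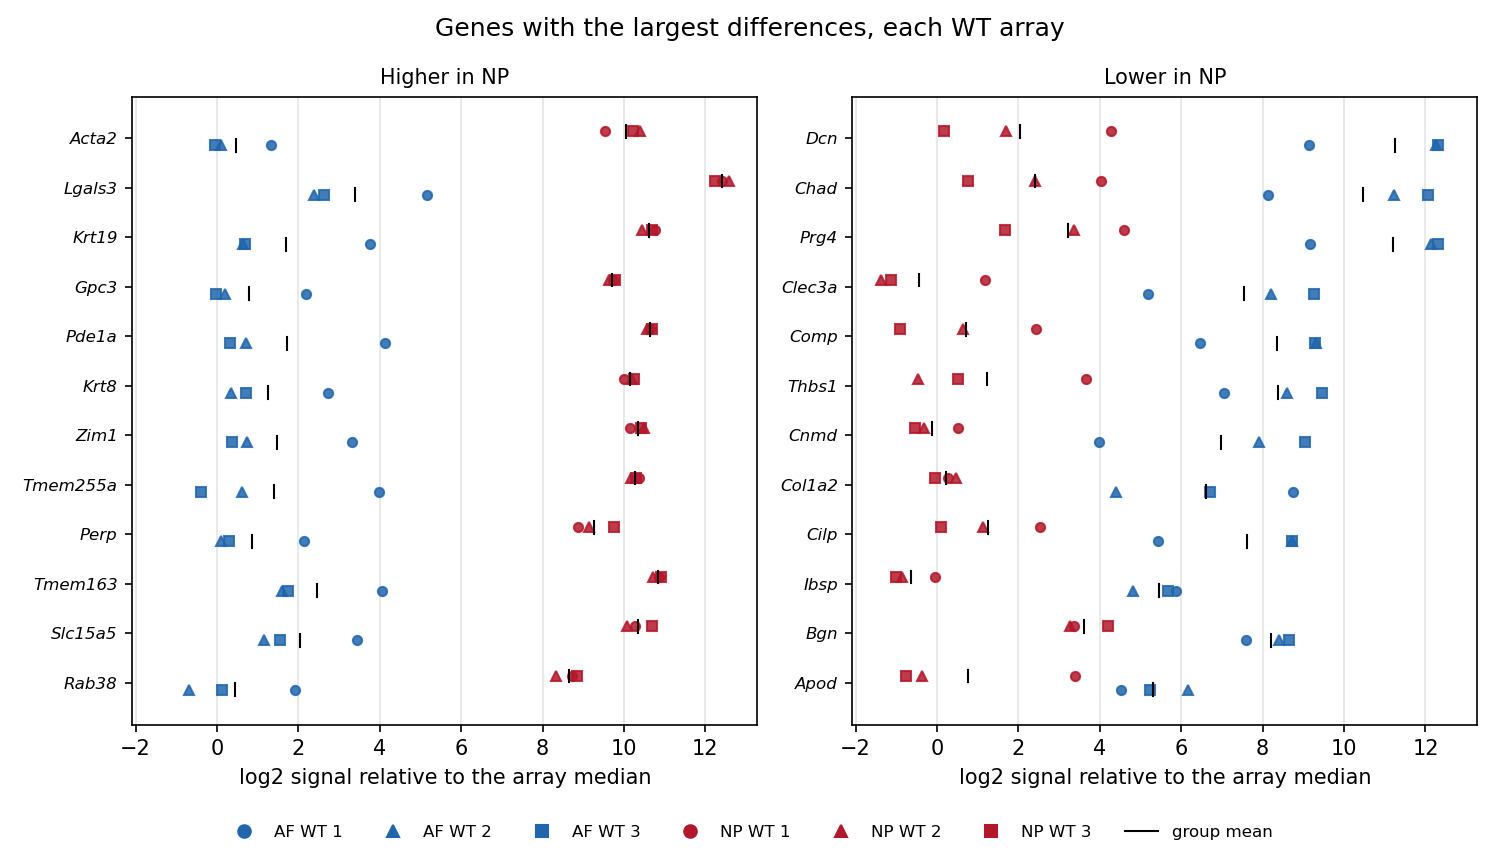
Level on every WT array, as log2 relative to the array median, of the 12 genes with the largest rises (left) and the 12 with the largest falls (right) in NP; blue AF, red NP, with the array given by the symbol and the group mean by the black bar. The naming rule required that the tissues do not overlap, so this holds for all 24 genes by selection. AF WT 1 is the rightmost blue point in all 12 panels of rises.

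The largest falls in NP were matrix genes of cartilage surface, tendon and bone. Dcn, encoding the collagen-binding proteoglycan decorin, read 4.27, 1.7 and 0.18 in NP and 9.15, 12.27 and 12.3 in AF. It differed by -9.19 ± 0.97 (adjusted p = 1.1e-05, limma), a lower bound since AF arrays 2 and 3 were at the top of the scale. NP array 1 read highest of the NP arrays and AF array 1 lowest of the AF arrays. The tissues did not overlap, which the naming rule required. Chad, a cartilage leucine-rich repeat protein, differed by -8.07 ± 0.94. Prg4, the lubricant lubricin, differed by -7.99 ± 0.82, with 1 AF array at the top of the scale, and Clec3a, a cartilage lectin, by -7.99 ± 0.91. Comp, the oligomeric protein that bridges collagen fibrils, read 2.42, 0.65 and -0.9 in NP against 6.47, 9.32 and 9.29 in AF, a difference of -7.64 ± 0.84 (adjusted p = 1.39e-05, limma). Thbs1 fell by 7.13 ± 0.88 and Cnmd, the antiangiogenic protein chondromodulin, by 7.09 ± 0.96. Ibsp, the bone sialoprotein, was above background on all 3 AF arrays (5.88, 4.82 and 5.68) and on none of the NP arrays, which makes the fall at least 5.11 log2, or 34.6-fold. Ranked with tissues at background set to their background level, the list closed with Col1a2 (-6.39 ± 0.79), Cilp (-6.38 ± 0.81), the small proteoglycan Bgn (-4.61 ± 0.32) and the lipocalin Apod (-4.55 ± 0.87). All 12 held under every scaling.

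The AF and tendon list divided between matrix genes, most of which were higher in AF, and the transcription factors and membrane marker of tendon cells. Of 22 members, 13 were called lower in NP and 6 higher, 12 and 2 of them held, with a median of -1.03. Among all clusters 32.7% were called lower and 34.6% higher, and 12.0% and 11.0% held. Col1a2 read 8.75, 4.39 and 6.7 in AF and 0.27, 0.46 and -0.05 in NP, and Col1a1, the partner chain of type I collagen, read 7.27, 3.29 and 6.23 against 1.69, 1.83 and 1.32. Col1a1 thus differed by -3.98 ± 0.75 (adjusted p = 0.000723, limma), with AF array 2 the lowest AF array for both chains. Lum, encoding lumican, which spaces collagen fibrils, read 3.91, 3.17 and 3.52 in AF and was at background in NP. It fell by at least 3.18 log2. Igfbp5, a binding protein of insulin-like growth factors, fell by at least 3.20, and Angptl7 by at least 2.51, both with NP at background. The remaining members held as lower were Cilp2 (-0.95), Thbs2 (-1.43), Thbs4 (-1.11), Aspn (-2.42) and Fbln1 (at least 0.65 lower). Against them, Fmod, a fibril-binding proteoglycan of tendon, was called higher in NP by 4.25 ± 0.23, although it did not hold with equalized ranges (0.55, adjusted p = 0.10, limma). Ptn, the heparin-binding growth factor pleiotrophin, read 8.39, 8.12 and 8.45 in NP against 3.45, 1.85 and 1.44 in AF. Ptn rose by 6.08 ± 0.42 and the matrix protein Tnxb by 4.36 ± 0.26, and both held. Igfbp6 and Egr2 were called higher by 1.15 and 0.88 without holding.

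The tendon-defining factors Scx and Mkx and the tendon marker Tnmd were above background on 0 of 3 AF arrays, and on 0 of 3 NP arrays too, although Scx was called higher and Tnmd lower. Kera was at background in both tissues, and Sfrp2 differed by -0.42 with no call. Decorin, type I collagen, lumican, Cilp and Igfbp5 were thus among the listed members held as higher in AF, and the tendon factors were not. Ptn and Tnxb of the same list held in the other direction. The type I collagen genes were lowest on AF array 2, as was the bone gene Bglap, whereas Dcn and Cilp were lowest on AF array 1.

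Cartilage genes fell on both sides of the comparison, although both tissues make a cartilage-like matrix. Of 25 genes, 7 were called higher in NP, of which 3 held, and 13 lower, of which 9 held. Over all clusters 34.6% were called higher and 11.0% held, and 32.7% were called lower and 12.0% held. Susd5, a hyaluronan-binding membrane protein, read 10.14, 9.87 and 10.2 in NP against 3.7, 2.55 and 2.7 in AF, a difference of 7.09 ± 0.30 (adjusted p = 2.62e-08, limma). The chondrocyte transcription factor Sox6 rose by 3.67 ± 0.26 and the chondrocyte membrane proteoglycan Snorc by 3.81 ± 0.30, and both held. Acan, the gene of aggrecan, read 12.6, 12.58 and 12.35 in NP and 8.84, 9.05 and 9.12 in AF. Its difference of 3.50 ± 0.20 was called, but turned to -0.89 with equalized ranges. The master regulator Sox9 differed by 3.44 ± 0.39 (0.06 with equalized ranges) and the link protein Hapln1 by 2.77 ± 0.50 (-0.99). Col2a1, the collagen of cartilage, differed by 0.75 ± 0.67 with no call. Beside the surface genes named above, the secreted factor Cytl1 (-2.61 ± 0.36, with 2 AF arrays at the top of the scale), Col9a3 (-1.61 ± 0.25), Col9a1 (at least 0.99 lower) and Col27a1 (at least 0.83 lower) held as lower in NP. Among 24 other genes of fibrils and their cross-links, the prolyl hydroxylases P4ha1 (4.32 ± 0.21) and P4ha2 (4.39 ± 0.31) and the lysyl oxidase family member Loxl3 (3.65 ± 0.25) rose. Lox itself fell by at least 1.88 log2, Omd, encoding osteomodulin, by at least 2.86 and Ogn, encoding osteoglycin, by 2.44 ± 0.43. The list held 3 rises and 7 falls in all, with a median of 0.07.

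NP also expressed genes of desmosomes and of a laminin, while many other listed epithelial genes were at background. Dsp, which ties keratin filaments to desmosomes, read 9.19, 8.72 and 8.58 in NP against 1.59, 0.44 and 0.45 in AF, a difference of 8.01 ± 0.32 (adjusted p = 2.52e-08, limma). The desmosomal cadherins Dsg2 (5.12 ± 0.35) and Dsc2 (at least 1.86), plakophilin Pkp2 (at least 3.18) and plakoglobin Jup (2.59 ± 0.20) rose and held, as did the keratin genes Krt7 (4.81 ± 0.42) and Krt20 (5.05 ± 0.26). The epithelial adhesion genes Cdh1 and Epcam and the basal keratin genes Krt5 and Krt14 were at background on every array of both tissues. Of 24 genes in this list, 14 were at background in both tissues, 7 held as higher and 1 as lower. Over all clusters 8949 of 22206 were at background in both tissues, and 11.0% and 12.0% held. Lamb3, a chain of the laminin that anchors epithelia, rose by 6.81 ± 0.32 in NP, with the chains Lama4 at 3.81 ± 0.26 and Lamc1 at least 0.72, and the proteoglycans Agrn at least 1.22 and Hspg2 at 2.70 ± 0.35. Of 21 basement membrane genes, 6 held as higher and 1, Col4a4, as lower.

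Genes of the contractile cytoskeleton accompanied Acta2 in part. Tagln, an actin-binding protein of smooth muscle, read 6.48, 7.19 and 6.94 in NP and was at background in AF, a rise of at least 6.64 log2. Cnn3 (5.07 ± 0.25), Tpm2 (4.77 ± 0.31), Tpm1 (4.60 ± 0.24), Actn4 (5.60 ± 0.22) and the membrane linker Ezr (4.11 ± 0.26) rose and held. The smooth muscle myosin gene Myh11 rose by at least 1.40, whereas Cnn1, Actg2 and Des were at background in both tissues. Of 29 genes, 8 held as higher and 3 as lower, against 11.0% and 12.0% of all clusters. Tpm3 (-1.56 ± 0.20) was among those held as lower. The median was 1.01, less than the 1.54 log2 by which centring on the exonic controls lowered every difference.

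Hedgehog ligand and target genes did not run in the same direction. Disp1, which releases the lipid-bound ligand, read 8.51, 8.6 and 8.69 in NP and 3.4, 1.83 and 2.72 in AF, a difference of 5.95 ± 0.34 (adjusted p = 1.2e-07, limma). The coreceptors Cdon (3.93 ± 0.32) and Gas1 (2.94 ± 0.28) and the secreted Scube2 (at least 1.43) rose and held. Ptch1, receptor and target, read 2.1 to 2.2 on the NP arrays and 0.63, 2.72 and 4.26 on the AF arrays, with no call. The target Gli1 fell by at least 0.55 log2 and Hhip, a target that sequesters the ligand, by at least 2.79. NP thus had the higher ligand and AF the higher Gli1 and Hhip. Of 17 genes, 4 held as higher and 3 as lower, against 11.0% and 12.0% of all clusters.

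Wnt genes were mostly undetected. Of 29 ligands, antagonists and targets, 18 were at background in both tissues, including the target Axin2. Over all clusters this was 8949 of 22206. Sostdc1, a secreted antagonist of Wnt and BMP signals, read 7.28, 6.8 and 7.22 in NP against 2.55, 1.52 and 1.0 in AF and rose by 5.41 ± 0.35 (adjusted p = 2.86e-07, limma). The ligand Wnt16 rose by at least 2.46. The secreted antagonists Wif1 and Frzb fell by at least 2.98 and at least 2.13, with NP at background. These 4 genes were the only members of the list to hold in either direction.

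Among 26 BMP and TGF-beta genes, 9 held as higher in NP and 4 as lower, against 11.0% and 12.0% of all clusters. The ligands Bmp5 (4.25 ± 0.25) and Bmp7 (at least 3.05), the ligand Tgfb2 (3.12 ± 0.23), the latency protein Ltbp1 (4.78 ± 0.35) and the antagonists Chrd (2.63 ± 0.23) and Fstl3 (3.76 ± 0.24) rose. The BMP target genes Id1, Id2 and Id3 rose by 4.13 ± 0.38, 4.19 ± 0.29 and 2.47 ± 0.36. In the other direction Tgfb1 fell by 2.83 ± 0.24, the antagonist Grem1 by 4.01 ± 0.65, the ligand Bmp3 by at least 1.25 and Inhba by at least 1.32. Grem1 read 1.84 on NP array 1 and -1.49 and -0.21 on the other NP arrays.

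Glucose uptake, glycolysis and oxygen-sensing genes were mostly higher in NP. Of 20 hypoxia and glucose uptake genes, 16 were called higher and 1 lower, 11 and 0 held, and the median difference was 2.90. Among all clusters 34.6% were called higher and 32.7% lower, and 11.0% and 12.0% held. Slc2a1, the glucose transporter, read 12.01, 12.29 and 11.9 in NP against 6.45, 4.09 and 3.96 in AF, a difference of 7.23 ± 0.53 (adjusted p = 6.86e-07, limma). The oxygen sensor Egln3 rose by 6.97 ± 0.34 and its relative Egln1 by 5.14 ± 0.23. Ndrg1 (6.26 ± 0.25) and the mitophagy gene Bnip3 (5.98 ± 0.26), both HIF targets, the angiogenic factor Vegfa (4.08 ± 0.34) and the pyruvate dehydrogenase kinase Pdk1 (3.77 ± 0.20) rose. Hif1a differed by 2.78 ± 0.24 and Epas1 rose by at least 2.65, the former not holding with equalized ranges (0.63, adjusted p = 0.075, limma). Of 17 glycolysis enzymes, 16 were called higher, 9 held, and the median was 3.48. The phosphofructokinase Pfkl rose by 6.15 ± 0.30, Tpi1 by 5.93 ± 0.26, Pgk1 by 5.78 ± 0.34 and Pgam1 by 4.79 ± 0.25. Beside these, the median over the clusters of the highest of the 5 level classes was 1.63.

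Respiratory chain subunits were called higher by less, apart from a pair of hypoxia-associated paralogs. Of 40 subunits, 34 were called higher, 11 held and none was called lower, with a median of 1.84, beside 1.63 in the highest level class. The shares of all clusters were 34.6% called higher, 11.0% held as higher and 32.7% called lower. Cox4i2, a subunit of complex IV used in low oxygen, read 7.27, 8.09 and 8.46 in NP and 0.87, 0.64 and 0.09 in AF, a difference of 7.41 ± 0.32 (adjusted p = 3.05e-08, limma). The ubiquitous form Cox4i1 differed by 2.40 ± 0.26. Ndufa4l2, a HIF-induced protein related to Ndufa4, rose by 6.12 ± 0.25, and Ndufa4 differed by 0.42 ± 0.21 with no call. The level of Ndufa4l2 was 10.35, 10.65 and 10.53 on the NP arrays.

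Osmoprotective genes contained large rises, while Nfat5 itself did not pass the test. Nfat5 read 2.26, 1.93 and 1.47 in NP and 0.1, 1.05 and 2.35 in AF, overlapping values with a difference of 0.72 ± 0.46 (adjusted p = 0.18, limma). Slc6a12, the betaine transporter and a TonEBP target, read 5.84, 6.83 and 6.92 in NP against 0.78, 0.82 and -0.05 in AF and rose by 6.01 ± 0.33 (adjusted p = 1.07e-07, limma). Slc12a2, the sodium, potassium and chloride cotransporter, rose by 7.81 ± 0.79, with 6.31 on AF array 1 against 2.93 and 2.21 on the others. The kinase Stk39, which activates it, rose by 5.14 ± 0.27 and the chaperone Hspa4l by at least 2.88. The volume-regulated channel subunit Lrrc8a rose by 3.03 ± 0.30 and the kinase Sgk1 by 4.32 ± 0.45. The water channel gene Aqp1 fell by 3.39 ± 0.21, from 4.07 to 4.44 in AF to 0.84 to 0.95 in NP. The taurine transporter Slc6a6 differed by 1.55 ± 0.31 and did not hold. Of 21 genes, 11 were called higher and 2 lower, and 7 and 2 held, against 11.0% and 12.0% of all clusters held. The median was 0.81, less than the 1.54 log2 by which centring on the exonic controls lowered every difference.

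Enzymes that build sulfated glycosaminoglycans were called in both directions. Of 30 enzymes, 19 were called higher and 5 lower, 9 and 2 held, with a median of 1.50. Over all clusters 34.6% were called higher and 32.7% lower, and 11.0% and 12.0% held. The medians of the 2 highest level classes of all clusters were 0.73 and 1.63, and the list's median was -0.03 centred on the exonic controls. Papss1, which makes the sulfate donor, rose by 4.95 ± 0.21 and Ugdh, which makes the glucuronic acid donor, by 4.87 ± 0.23. The heparan sulfate polymerase gene Ext1 (4.62 ± 0.26), the chondroitin sulfotransferase gene Chst11 (3.96 ± 0.50) and Xylt1, which starts the chains (3.77 ± 0.20), rose. Chst15 fell by 2.47 ± 0.25. The hyaluronan synthase Has2 showed no call, and Has1 and Has3 were at background in both tissues.

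Proteases and their inhibitors split along a line between family members. The inhibitor Timp3 read 8.4, 7.87 and 8.07 in NP against 1.13, 1.96 and 2.6 in AF and rose by 6.22 ± 0.33 (adjusted p = 9.25e-08, limma), and Timp2 rose by 4.58 ± 0.23. The serine proteases Htra1 (4.89 ± 0.23) and Htra3 (3.89 ± 0.23) rose, whereas Htra4 fell by at least 4.01. The collagenase Mmp13 fell by at least 3.10, the gelatinase Mmp9 by 3.35 ± 0.63 and Mmp2 by at least 0.58, the first and last with NP at background. Adamts5 and Adamts4, the aggrecanases, were at background in both tissues. The near-identical antitrypsin genes gave opposite readings, Serpina1e a called rise of 4.08 ± 0.40 and Serpina1b a fall of 3.84 ± 0.72. Their sequences are nearly alike, and how far the probes of one bind the other was not tested. Of 33 genes, 4 held as higher and 10 as lower, against 11.0% and 12.0% of all clusters.

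Genes of hypertrophic cartilage and bone were lower in NP with 2 exceptions. Of 12 measured genes, 10 were called lower and 5 held, against 32.7% and 12.0% of all clusters, with a median of -2.72. The osteoblast genes Bglap (at least 2.16), Sp7 (at least 1.01) and Panx3 (at least 1.39) and the hypertrophic collagen gene Col10a1 (at least 2.13) fell, all with NP at background. Bglap read 4.51, 0.4 and 2.61 on the AF arrays, so AF array 2 was the lowest, as for type I collagen. Pth1r, the parathyroid hormone receptor, rose by 3.18 ± 0.31 and held, and Dlx5 differed by 1.01 ± 0.46 with no call. The osteoclast gene Acp5, at 4.83, 1.26 and 5.15 in AF, was lowest on AF array 2 as well, and fell by at least 3.40.

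Genes of blood and marrow cells and of division were lower in NP. Over all clusters 32.7% were called lower and 12.0% held as lower. All 15 neutrophil and myeloid precursor genes were called lower, 14 held, and their median difference was -3.09. S100a8 read 9.05, 9.19 and 7.19 in NP against 12.08, 11.98 and 11.94 in AF, a difference of -3.52 ± 0.43 (adjusted p = 3.41e-05, limma). The primary granule genes Mpo (-3.61 ± 0.30) and Ctsg (-3.06 ± 0.33) fell too. Both tissues carried the S100a8 transcript, as they did that of the antimicrobial gene Lcn2 (7.91 to 10.32 in NP), which sat at the top of the scale on all 3 AF arrays. All 8 erythroid genes were called lower, among them Alas2, the haem synthesis enzyme (-3.54 ± 0.44), and the membrane skeleton gene Epb42 (-2.51 ± 0.25). Of 13 macrophage genes, 10 were called lower, 5 held as lower and 4 were at background in both tissues. The lysozyme gene Lyz2 was among those called lower (-4.12 ± 0.32). Csf1r, the growth factor receptor of macrophages, was the 1 called higher (3.45 ± 0.42, held). Of 11 B and plasma cell genes, 10 were called lower, 6 held and 3 were at background in both tissues, and the pre-B factor Ebf1 was among those held (-3.18 ± 0.26). All 10 T and NK cell genes were called lower, but 5 were at background in both tissues and 4 held. The mean level of the neutrophil list was 7.72 to 8.23 on the AF arrays and 4.17 to 5.58 on the NP arrays, and that of the erythroid list 3.75 to 3.85 and 0.91 to 2.11.

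All 19 measured cell cycle genes were called lower in NP and 17 held, against 32.7% and 12.0% of all clusters. The median was -2.39. Mki67, the proliferation marker, read 5.16, 6.19 and 4.35 in NP and 9.07, 8.9 and 9.37 in AF, a difference of -3.88 ± 0.38 (adjusted p = 6.47e-06, limma). Ccnb2, a cyclin of mitosis, fell by 2.89 ± 0.29, Kif11, a spindle motor, by 2.79 ± 0.29 and the nucleotide enzyme Tyms by 2.24 ± 0.23. The mean level of the cell cycle list was 0.89, 1.22 and 0.53 on NP arrays 1, 2 and 3, and that of the erythroid list 1.16, 2.11 and 0.91. Both were highest on NP array 2 and lowest on NP array 3. The part of marrow cells in the cell cycle difference was not tested, and in tissue samples fewer cells of a type and less RNA per cell cannot be told apart.

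Vessel, nerve and muscle genes gave a few exceptions. Of 11 endothelial genes, 10 were called lower, against 32.7% of all clusters, 6 held and 4 were at background in both tissues. Those held included the junction genes Cdh5 (at least 0.82 lower) and Pecam1 (at least 0.60 lower), with NP at background. Flt1, a receptor of VEGF, was the exception: it read 4.3, 4.31 and 4.85 in NP and was at background in AF, a rise of at least 4.26. Among 13 Schwann cell and neuron genes, the adhesion gene Ncam1 (6.18 ± 0.32), Pmp22 (4.97 ± 0.22) and S100b (3.48 ± 0.30) rose and held, while the Schwann cell factor Sox10 was at background in both tissues. No other member was called higher, 4 were called lower, of which 1 held, and 7 in all were at background in both tissues. The list's median was -0.29. Shares of all clusters were 34.6% called higher and 32.7% lower, with 11.0% and 12.0% held. Of 15 skeletal muscle genes, none was called higher and 10 were called lower, of which 1 held. At background in both tissues were 8 of them, against 8949 of all 22206 clusters.

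Inflammatory, interferon and stress genes moved in both directions. Over all clusters 34.6% were called higher and 32.7% lower, and 11.0% and 12.0% held. Of 28 inflammatory mediators, 15 were called lower in NP and 6 held, among them Il1b (-3.87 ± 0.57) and the receptor antagonist Il1rn (at least 0.74). Tlr4, the receptor of bacterial lipopolysaccharide, rose by 4.05 ± 0.23, from 1.69 to 1.81 in AF to 5.49 to 6.13 in NP. Among 21 interferon response genes 4 held as higher, with Ifi27 at 3.17 ± 0.23, and 5 as lower, with Ifitm3 at -2.42 ± 0.28. Of 21 immediate early genes, which respond to handling within minutes, 3 were called higher and 5 lower, and their median was -0.29. Fos read 4.34, 6.68 and 9.53 on the NP arrays and 8.51, 6.74 and 9.06 on the AF arrays, overlapping values with no call. Myc (-1.12 ± 0.31) and Zfp36 (-1.49 ± 0.44) fell. Of 17 chaperone and unfolded protein response genes, 13 were called higher, 4 held, and Creb3l2, a transcription factor of the secretory pathway, rose by 6.39 ± 0.23. Of 24 Hox genes, 14 were at background in both tissues, against 8949 of all 22206 clusters. Hoxa5 rose by at least 3.41 and Hoxc9 fell by at least 0.38, and no other member held.

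**Figure D4:**
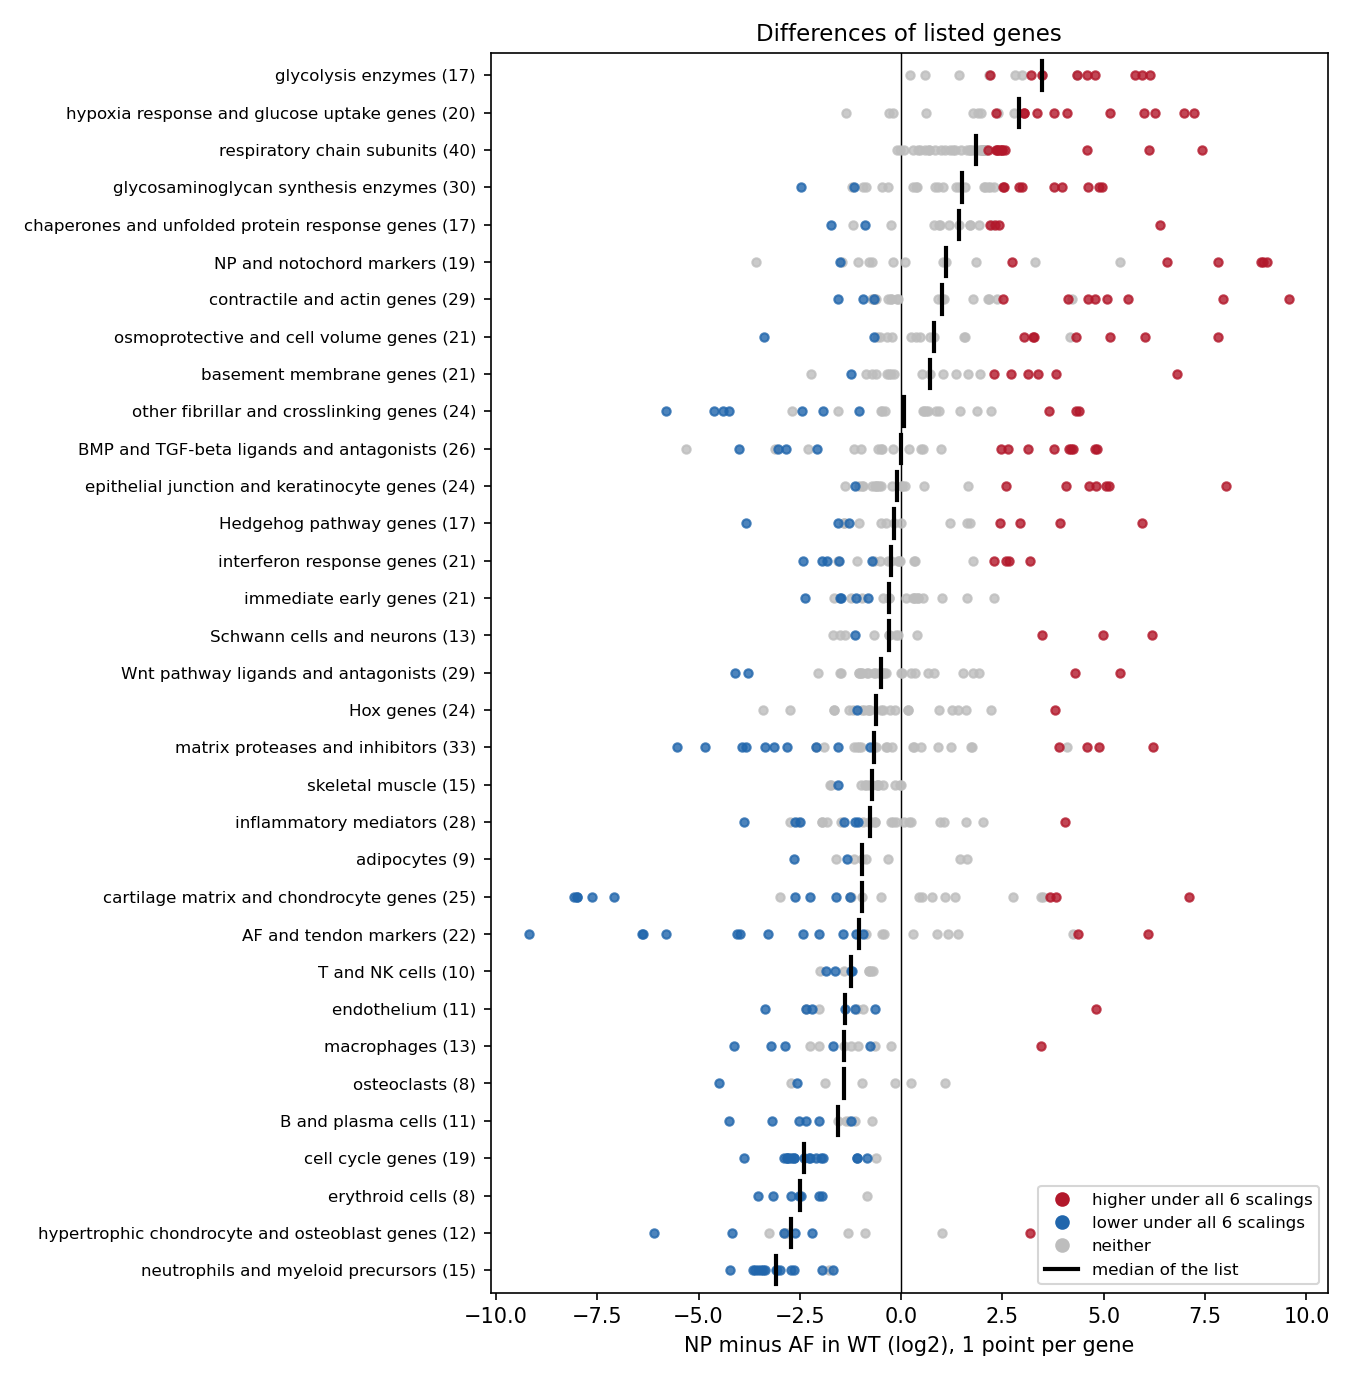
NP minus AF difference in WT (x axis, log2) of every measured gene of the 33 lists, 1 point per gene; red held as higher and blue as lower under all 6 scalings, grey neither, black bars are list medians, and the number of measured genes follows each name. Glycolysis (median 3.48) and hypoxia genes (2.90) stand at the top, and neutrophil (-3.09), bone (-2.72), erythroid and cell cycle genes at the bottom.

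The same comparison in TonEBP +/- mice rested on 6 other samples. Of the 2448 clusters held as higher in WT, 2441 (99.7%) were called higher there, and of the 2673 held as lower 1620 (60.6%) were called lower, against 29.1% and 22.1% of all clusters. The sets differ in size of change, since every held rise but not every held fall was at least 4-fold, so these shares are not compared with each other. A single cluster was called in the opposite direction. All 24 genes with the largest differences were called the same way. Acta2 differed by 9.59 ± 0.31 in TonEBP +/- and Krt19 by 11.04 ± 0.43, with AF readings of -0.52, -1.36 and 0.65 for Krt19, so no AF array there stood out as AF array 1 did in WT. Dcn differed by -7.01 ± 0.53 and Col1a2 by -10.39 ± 0.34, the latter with 9.98, 11.03 and 10.22 in AF. The change of the tissue difference between the genotypes was tested as an interaction, and 162 of 22206 clusters passed at an adjusted p under 0.05 by limma (3023 at an unadjusted p under 0.05). Of the 24 genes, Ibsp was the only one among them. That number depended on single arrays: it was 10 without AF WT array 2 or NP WT array 1 and 1327 without AF TonEBP +/- array 2. The interquartile range was 2.40 to 3.11 log2 on the AF TonEBP +/- arrays.

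**Figure D5:**
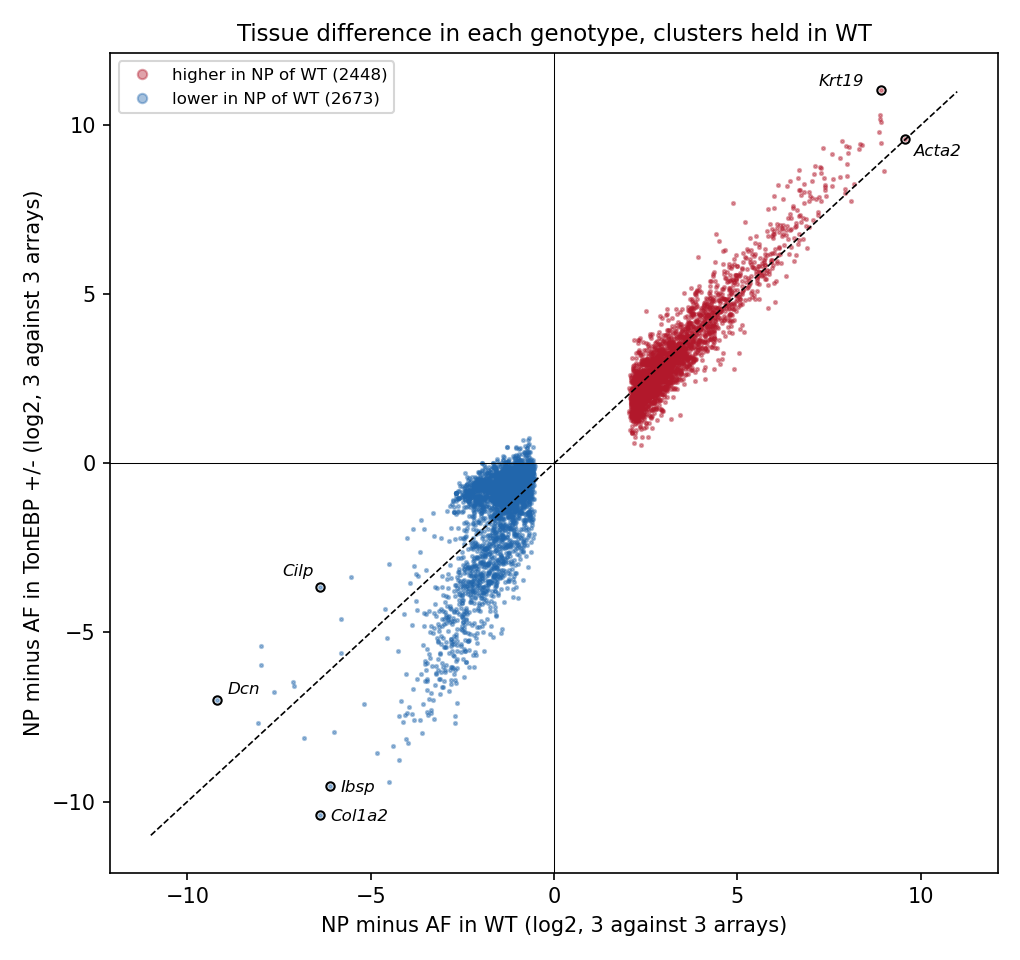
NP minus AF difference in WT (x axis) and in TonEBP +/- mice (y axis), log2, 3 against 3 arrays each, for the 2448 clusters held as higher (red) and the 2673 held as lower (blue) in WT; the dashed line marks equal differences. Red points follow the line, and blue points with small WT falls spread from about 0 to well below it, with Cilp above the line and Col1a2 and Ibsp below.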

How the data were processed

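Total RNA of AF and NP tissue was labelled with the GeneChip WT Plus kit, per the labels' protocols, and hybridized to Clariom S Mouse arrays. RMA and Affymetrix Expression Console appear, without versions, in the submitters' processing notes. The deposited values are log2 signals of 28846 probe sets. Which arrays were normalized together is not given in the sources used here. The 6640 control probe sets were left out of the tests and gave the background and control levels. Of 22206 transcript clusters, 19572 carried 1 gene symbol. Each array's median was subtracted, and the 6 WT arrays were fitted with limma 3.58.1 in R 4.3.3 with a mean for each tissue, eBayes and Benjamini-Hochberg adjustment over all clusters. In data simulated for the WT comparison (200 of 22206 clusters changed), 0% of changes of 1 log2, 97.5% of 2 log2 and 99.5% of 3 log2 were recovered. The number of arrays limits the precision. Where a tissue was above background on 0 of 3 arrays, its mean background level replaced its mean, which gives an "at least" value, and with both tissues there no change is given.

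Genes were named by a rule: from called clusters with 1 symbol, no overlap and the higher tissue above background, the 12 that rose most and the 12 that fell most, with a tissue at background set to its background level before ranking, then Nfat5, the NP and AF lists, and from each other list up to 8 members with the smallest adjusted p or that define it. Members named beyond 8 in a list, and the genes under other observations, were chosen after their values were seen. All lists, like the comparison itself, were chosen with earlier results of these data known. Of 703 listed genes 652 had a cluster. Promoters came from RefSeq (GRCm38.p6). Alternatives were other scalings, filters on dim clusters, all 12 arrays in the fit, other estimates of the spread and leaving out each array. Figures were drawn with Python 3.11.15 and matplotlib 3.10.9.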

Additional observations from a re-analysis of the deposited data

Results flagged for a closer look

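For some named genes the tissue difference itself differed between the genotypes, by limma's interaction term with an adjusted p under 0.05. The values below are the TonEBP +/- difference less the WT difference, in log2. Among matrix and bone genes, the fall in NP was larger in TonEBP +/- for Col1a1 (-4.28 ± 0.93, adjusted p = 0.047), Mmp13 (-3.74 ± 0.74, adjusted p = 0.031), Ibsp (-3.43 ± 0.49, adjusted p = 0.011) and Lum (-2.19 ± 0.47, adjusted p = 0.046). Col1a1 read 7.27, 3.29 and 6.23 in WT AF and 9.65, 9.72 and 10.23 in TonEBP +/- AF, without overlap. The fall was larger for the myeloid genes Mpo (-4.36), Ctsg (-3.54) and Lyz2 (-3.54), the cell cycle genes Mki67 (-3.52) and Ccnb2 (-2.07), Ifitm3 (-3.13) and Aqp1 (-1.60). Mpo read 6.4, 7.0 and 6.18 in WT NP and 3.44, 1.99 and 4.28 in TonEBP +/- NP.

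The rise in NP was larger in TonEBP +/- for Htra1 (2.80 ± 0.36, adjusted p = 0.011), Serpina1e (2.61 ± 0.57, adjusted p = 0.047), Fmod (2.23), Cdon (2.17), Ndufa4l2 (2.13) and Acan (2.08). Htra1 read 6.95, 6.27 and 6.54 in WT AF and 3.53, 3.94 and 4.45 in TonEBP +/- AF, while NP read 11.43 to 11.54 and 11.6 to 11.71. The Htra1 readings of the genotypes thus lay further apart in AF than in NP, but genotypes were not tested within a tissue. The number of interactions called depended on which array was left out, so these values rest on few samples.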

How the results depend on the processing

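The direction counts depended on how the arrays were scaled. Against 7689 clusters higher and 7272 lower in NP, the deposited values without median subtraction gave 5095 and 12688, and centring on the exonic controls, chosen after seeing the data, gave 2789 and 15849. These moved the median of all clusters by -0.74 and -1.54 log2. Restricting the test to clusters clearly above background, which are fewer, left 9182 calls in WT, 2735 of them lower in NP, and 7324 in TonEBP +/-. Leaving out 1 array gave 13637 to 14170 calls in WT, 7265 to 7445 of them higher and 6342 to 6747 lower, and 8862 to 13273 in TonEBP +/-. The interaction count of 162 became 61 with equalized ranges, 247 centred on all controls and 10 to 1327 with 1 array left out, and the cause was not tested. With limma's array weights it was 2469, but their estimation stopped before it converged and gave AF TonEBP +/- array 1 a weight of 22.9, so this value carries no information on the interaction; the weights of the TonEBP +/- fit did not converge either.

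Of 216 called genes named in the text, 190 kept their call and direction in every setting run. Many were named for large differences or small adjusted p, so this number is in part set by selection. Over all clusters, under the scalings alone, 2516 of 7689 called higher and 4423 of 7272 called lower kept their call and direction. Among the 216 named genes, 11 turned in at least 1 setting. With equalized ranges these were Cd24a (-0.59), Acan (-0.89), Hapln1 (-0.99), Slc6a6 (-1.10, and -0.04 after quantile normalization) and Mest (0.07). Centred on the exonic controls they were Foxa1 (-0.49), Basp1 (-0.43), Scx (-0.12), Igfbp6 (-0.39), Egr2 (-0.66) and Cdkn1c (-0.45). Of 33 list medians, 16 changed sign in at least 1 setting.

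No paired analysis was possible because the labels do not tie AF samples to NP samples of the same mouse. In data simulated with 200 changed clusters no change of 1 log2 was recovered, whereas here, with most clusters called, the smallest called difference was 0.47. Signals at the top of the scale and at background bound the differences of the genes named there, and the separate signal range of the AF arrays cannot be told apart from the tissue.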

Other observations

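Gene families outside the lists were looked at after their values were seen, and are given as values. Genes that build caveolae, the membrane pits coated by caveolins and cavins, were higher in NP. Cavin1 read 8.21, 8.29 and 8.19 in NP against 1.53, 1.61 and 1.81 in AF, a difference of 6.58 ± 0.20 (adjusted p = 2.52e-08, limma). Cav1 was at background in AF and rose by at least 5.99 log2, or 63.4-fold, and its partner Cav2 by at least 4.33. The accessory proteins Cavin2 (6.46 ± 0.42), Cavin3 (3.14 ± 0.20), Ehd2 (7.14 ± 0.26), Ehd3 (6.83 ± 0.45), Ehd4 (2.82 ± 0.35), Pacsin2 (3.25 ± 0.23) and Pacsin3 (3.14 ± 0.21) rose, and all held under every scaling. The muscle caveolin Cav3 was at background in both tissues, and Cavin4 and Ehd1 were not called. The tissue difference in TonEBP +/- was also called for each of the genes that rose, with Cavin1 at 7.00 ± 0.40 and Ehd2 at 7.82 ± 0.36.

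Zim1, among the largest rises, lies on chromosome 7, as do the imprinted genes Peg3 and Usp29. Peg3 read 10.59, 10.47 and 10.63 in NP against 4.17, 2.04 and 1.91 in AF and rose by 7.86 ± 0.48 (adjusted p = 2.11e-07, limma), and Usp29 rose by at least 6.11. Other imprinted genes varied. On chromosome 7, Igf2 differed by -0.22 ± 0.23 with no call, and Cdkn1c was called higher by at least 0.39 without holding. On other chromosomes, Plagl1 rose by at least 4.34, Grb10 by 3.96 ± 0.27 and Igf2r by 3.62 ± 0.24, and Mest and Dlk1 were at background in both tissues. Of the glypicans, Gpc3, Gpc4 (at least 4.21), Gpc6 (3.82 ± 0.35) and Gpc1 (3.77 ± 0.22) rose, and Gpc2 and Gpc5 were at background in both tissues. In AF, the proteoglycan Vcan read 4.56, 5.47 and 6.56 against 1.34, 0.96 and 0.77 in NP, a fall of 4.50 ± 0.41.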
